A study of Rattus norvegicus with 4 samples.

Results

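Circular RNAs (circRNAs) that were called in every library of crushed and sham-operated rat sciatic nerve formed a core of 303 out of 4942 circRNAs. They were chosen by joining the deposited tables of the 4 libraries and keeping each circRNA, of any class, with a back-splice junction read count above 0 in all of them. The crush group comprised 2 libraries of sciatic nerve from Sprague-Dawley rats at postnatal week 6, in which a 3 mm stretch was crushed 2 times, for 15 s each and with a 3 s pause. The crushed stretch was taken with 1 mm of nerve at either end. The sham group comprised 2 libraries of the same strain, age and nerve, in which the nerve was exposed without a crush. Nerves were collected 24 h after surgery in a design that compares injured with uninjured nerve. Whether the libraries of 1 group came from separate or pooled rats is not stated in the labels, so a p-value reflects the spread of these libraries alone, and that spread could be technical.

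A circRNA forms when the spliceosome joins a downstream splice donor to an upstream splice acceptor, so that a stretch of transcript, often a few exons, closes on itself. A closed circle has no free end for exonucleases and many circRNAs outlast the linear messenger RNA of their host gene. Only a read that crosses the back-splice junction marks the circle, and each circle has a single such junction. Junction reads of different circles can therefore be set side by side without a correction for length. In a crushed peripheral nerve Schwann cells leave the myelinating state, axons beyond the crush degenerate and leukocytes enter.

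Junction reads totalled 8250 and 9027 in crushed nerve against 9018 and 8726 in sham nerve, over 1785 and 2022 called circRNAs in crushed nerve against 1704 and 1711 in sham nerve. A listed count was 0 or at least 2. As hosts of any circRNA in the tables, 4 of 16 Schwann cell markers were found, with 2 and 7 junction reads in crushed nerve against 2 and 27 in sham nerve. Sox10, S100b and Prx were among those listed at 0. The leukocyte list, with 7 of 10 hosts found, had 69 and 52 reads in crushed nerve against 0 and 0 in sham nerve, and Cd68, Lyz2 and Ccr2 were at 0. Endothelial hosts, 3 of 6, had 8 and 8 reads in crushed nerve against 7 and 9 in sham nerve. Adipocyte hosts, 1 of 5, had 0 and 0 in crushed nerve against 2 and 0 in sham nerve, and mast cell hosts, 1 of 3, had 2 and 0 in crushed nerve against 0 and 0 in sham nerve. No core circRNA came from a host on the Schwann cell, leukocyte, endothelial, adipocyte or mast cell list. The leukocyte, adipocyte and mast cell lists could give none, since each had 0 reads in a whole group. The part of cell makeup in the results was not tested. In bulk nerve, fewer cells of a type and less RNA per cell cannot be told apart.

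The core was small in number and large in reads. It made up 6.13% of all circRNAs, and 17.0% and 15.0% of those called in crushed nerve, against 17.8% and 17.7% of those called in sham nerve. It took 36.8% (95% exact interval 35.7% to 37.8%) and 35.7% (34.7% to 36.7%) of the junction reads after crush. After sham it took 45.0% (44.0% to 46.0%) and 46.0% (45.0% to 47.1%). The mean share was 36.2% ± 0.80 in crushed nerve against 45.5% ± 0.74 in sham nerve (SD, n = 2), which differ by -9.30 percentage points. The crush libraries lay below both sham libraries. The intervals cover counting error only, and since the same reads chose the members, the shares are a description.

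Most of that gap lay in the 5 most abundant members, which were circRNAs of Nfix, Mlip and Ttc3 and 2 intergenic ones on chromosomes 10 and 3. These 5 took 4.27% and 4.13% of all junction reads in crushed nerve against 10.4% and 11.9% in sham nerve. The other 298 members took 32.5% and 31.5% after crush and 34.6% and 34.1% after sham, a difference of -2.33 percentage points. Of the 5, 4 had a negative log2 change after crush and 1 a positive one. The positive one was the intergenic circRNA on chromosome 3, with 151 and 102 reads in crushed nerve against 111 and 107 in sham nerve. The 5 were ranked on the same libraries, so their summed excess in sham is a description.

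Levels within the core covered a wide range. The mean over the 4 libraries was 2 junction reads for the lowest member, 7.5 for the median member and 194.5 for the highest. The middle of the distribution was narrow, with quartiles at 5 and 11.75 reads. The 20 most abundant members held 34.7% of all core reads, and 49 members held 50% of them. Only 106 members had at least 5 reads in every library, 33 had at least 10 and 14 had at least 20. At the other end 90 members had the lowest listed count, 2, in at least 1 library, and a circRNA of Herpud2 (chromosome 8, 26267895 to 26294259) had 2 reads in each of the 4.

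Rank was not held equally by the core in every library. Members filled 8 and 8 of the 10 highest places in crushed nerve, against 9 and 10 in sham nerve. Of the 100 highest places they filled 65 and 68 in crushed nerve against 81 and 84 in sham nerve. The same reads set the ranks and chose the members, so these places are a description. Member ranks ran from 1 to 1005 and 1111 in the crush libraries, with medians of 245 and 212. In the sham libraries they ran from 1 to 1041 and 975, with medians of 211 and 202. Equal counts share the best rank of their tie. The last rank in each library is thus that of the lowest listed count, 2. That count was held by 35 and 29 members in crushed nerve against 21 and 33 in sham nerve. The intergenic circRNA on chromosome 3 ranked 1 and 2 in crushed nerve against 6 and 5 in sham nerve, whereas that of Nfix ranked 3 and 1 after crush and 1 in both sham libraries.

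Just outside the rule stood 319 circRNAs called in exactly 3 libraries. The missing library was crush replicate 1 for 100 of them, crush replicate 2 for 64, sham replicate 1 for 77 and sham replicate 2 for 78. Their median count was 4 reads when called, against 7 for members. Among the 6 most abundant, the circRNA of Arid1a, a subunit of the SWI/SNF remodelling complex (chromosome 5, 151944769 to 151947717), had 64 and 88 reads in crushed nerve against 0 and 44 in sham nerve. That of Irak3, an inhibitor of Toll-like receptor signalling (chromosome 7, 64959567 to 64961215), had 39 and 33 in crushed nerve against 0 and 33 in sham nerve. That of Pwwp2a (chromosome 10, 29318809 to 29319752) had 30 and 29 in crushed nerve against 0 and 35 in sham nerve. Each of these lacked sham replicate 1 alone. The circRNA of Washc1 (chromosome 9, 113918918 to 113927885) had 11 and 46 reads in crushed nerve against 38 and 0 in sham nerve. That of Snx13 (chromosome 6, 54522274 to 54530157) had 0 and 36 in crushed nerve against 25 and 26 in sham nerve. An intergenic one (chromosome 2, 197722898 to 197836197) had 15 and 34 in crushed nerve against 48 and 0 in sham nerve. A single missing library thus kept out circRNAs more abundant than most members.

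Exonic circRNAs made up 254 of the 303 members, or 83.8%, and 74.95% of the 4639 circRNAs outside the core. Intronic ones were 4 of the members, or 1.32%, and 10.2% of the rest, and intergenic ones were 45, or 14.9%, and 14.8% of the rest. The intronic share was 11.5% among circRNAs called in 1 library, 7.09% in 2, 3.76% in 3 and 1.32% in all 4. The exonic share was 73.6%, 78.2%, 83.1% and 83.8% in the same order. Class was not used by the rule, but these are counts of circRNAs and not of samples, so no test is given. The share of core reads from exonic members was 78.3% and 78.8% after crush and 78.1% and 75.3% after sham.

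**Figure D1:**
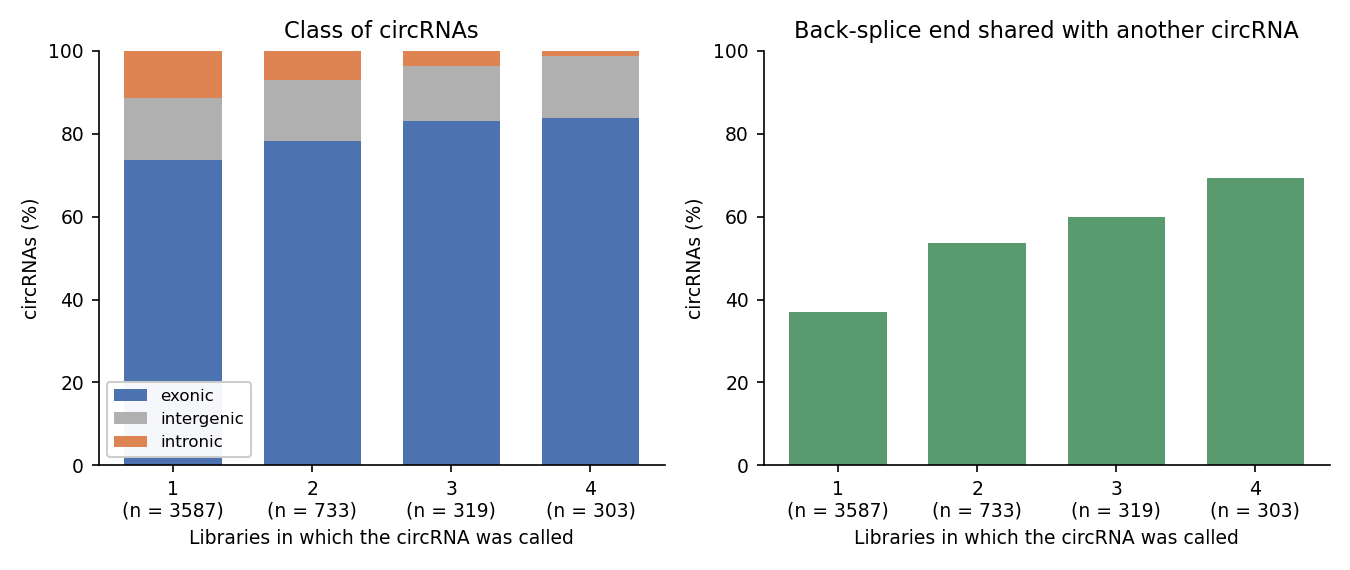
Stacked bars on the left give the percentage of exonic, intergenic and intronic circRNAs, and bars on the right the percentage that share a back-splice end with another circRNA of the same strand, by the number of libraries that called the circRNA. The intronic share is 11.5% among circRNAs of 1 library and 1.32% in the core, while end sharing is 37.1% and 69.3%.

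The genomic span of a member, which is the deposited distance from start to end and includes introns, was close to that of other circRNAs at the median. The median was 8259 bases in the core (quartiles 3285.5 and 18046) and 8967 outside it (3158 and 21995.5). Spans under 1 kb were 9.24% of the core and 9.59% of the rest, and spans of 50 kb or more were 5.28% and 8.79%. Within the core, span and mean reads were nearly unrelated (Spearman's rho -0.07 over 303 circRNAs, a description). The shortest member, from Cpd, a carboxypeptidase gene (chromosome 10, 63332239 to 63332486), spanned 247 bases and had 2 and 4 reads in crushed nerve against 3 and 3 in sham nerve. The next shortest were intergenic, with spans of 282 (chromosome X) and 324 bases (chromosome 5). The longest were intergenic too, spanning 139159 bases on chromosome 18, 104193 on chromosome 10 and 99760 on chromosome 4. Members lay on 21 chromosomes, with 30 on chromosome 1, 5 on X and none on Y, and 152 on the plus and 151 on the minus strand.

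Host genes of the core numbered 214, or 9.20% of the 2327 hosts in the tables, for the 258 members with a host. These hosts gave 730 circRNAs, 17.4% of all with a single host, of which 472 lay outside the core. Of the core hosts, 27.1% gave a single circRNA, against 65.7% of other hosts. A gene with more circRNAs has more chances to give a member, so the rule itself favours this difference. Most junction reads of these genes came from the members, at 81.0% and 80.5% after crush and 81.2% and 82.3% after sham. The same reads chose the members and these genes, so the shares are a description. An end of the back-splice was shared with another circRNA of the same strand for 210 members (69.3%), and with another member for 72. Outside the core it was shared for 41.3% of circRNAs, at 37.1% of those called in 1 library, 53.6% in 2 and 59.9% in 3.

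Of the core hosts, 182 gave 1 member, 24 gave 2 and 8 gave 3 or more. The 8 were Ash1l with 6, Ttc3 with 4, and Atrnl1, Herpud2, Mkln1, Mlip, Pan3 and Smad4 with 3 each. In 19 of the 32 hosts with at least 2 members, all members of the host shared 1 splice end, and in 24 at least 2 members did. The most abundant member of such a host was also its shortest in 19 of 32, and held a median of 66.7% of the host's core reads. In the 24 hosts with 2 members the leading one holds most of the reads by definition. No chance level was computed for either value, so both are a description. In Ash1l, a histone methyltransferase gene, 4 of the 6 members began at position 188269009 of chromosome 2. In Mkln1, whose product muskelin belongs to a ubiquitin ligase complex, all 3 began at 58714647 of chromosome 4. All 3 of Pan3, a subunit of a poly(A) nuclease, ended at 9313769 of chromosome 12, and all 3 of Smad4, the shared mediator of TGF-beta and BMP signals, ended at 69657373 of chromosome 18. Circles that share a splice end also share sequence, and the members of 1 host are not independent of each other.

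Intergenic members were 45, and 37 passed the filter for testing. On the same strand, 10 of them overlapped a hosted circRNA and 5 shared an end with such a circRNA. The other 35 lay a median of 413726 bases from the nearest hosted circRNA of their strand, and 1 lay within 10 kb. The member at chromosome 3, 81127393 to 81143240, second in reads among them, shared an end with circRNAs of Phf21a and had 151 and 102 reads in crushed nerve against 111 and 107 in sham nerve. At chromosome 2, 33950934 to 33955969, a circRNA had 48 and 47 reads in crushed nerve against 37 and 50 in sham nerve. At chromosome 1, 204959173 to 204961691, a circRNA that shared an end with one of Zranb1 had 21 and 27 in crushed nerve against 33 and 26 in sham nerve. The unscaled counts of these 3 overlapped between the groups, and on TMM-scaled levels both crush values of the first and second lay above both sham values. None of the 3 passed the test described below, while 2 other intergenic members did.

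Replicates kept the order of the members better than libraries of different groups did. Over the 303 members Spearman's rho was 0.58 between the crush replicates and 0.67 between the sham replicates, and from 0.38 to 0.46 across groups. Member levels scaled to the library lay within 2-fold of each other for 220 members (72.6%) between the crush replicates and 231 (76.2%) between the sham replicates. Across groups they did so for 161 to 177 members (53.1% to 58.4%). The median fold between replicates was 1.54 after crush and 1.49 after sham. These values describe circRNAs of the same 4 libraries and carry no test.

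Replicate spread was somewhat above counting error. The squared difference of 2 replicate counts over its counting variance, which averages 1 when reads are only counted, averaged 1.59 after crush and 1.36 after sham. It was above 4 for 13.2% of members after crush and 8.58% after sham, where counting error alone gives about 4.55%. Among the 95 members with a mean of at least 10 reads the averages were 2.44 after crush and 1.82 after sham. Across groups the averages were 3.795 to 4.82 over all members. The rule keeps out pairs in which 1 library was at 0, so these values do not describe all circRNAs.

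Among the members with a mean of at least 20 reads, the closest replicates were those of Mlip, Gigyf2 and Crebrf. Mlip codes for a lamin-interacting protein, and its main circRNA (chromosome 8, 84434784 to 84461546) had 66 and 64 reads in crushed nerve against 177 and 179 in sham nerve. Gigyf2 acts in translational repression, and its main circRNA (chromosome 9, 94463647 to 94481167) had 28 and 25 in crushed nerve against 57 and 47 in sham nerve. The replicates farthest apart were those of 3 intergenic members. The one at chromosome 10, 62623758 to 62664462, had 34 and 80 reads in crushed nerve against 62 and 93 in sham nerve, a 2.30-fold and a 1.68-fold difference between replicates.

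**Figure D2:**
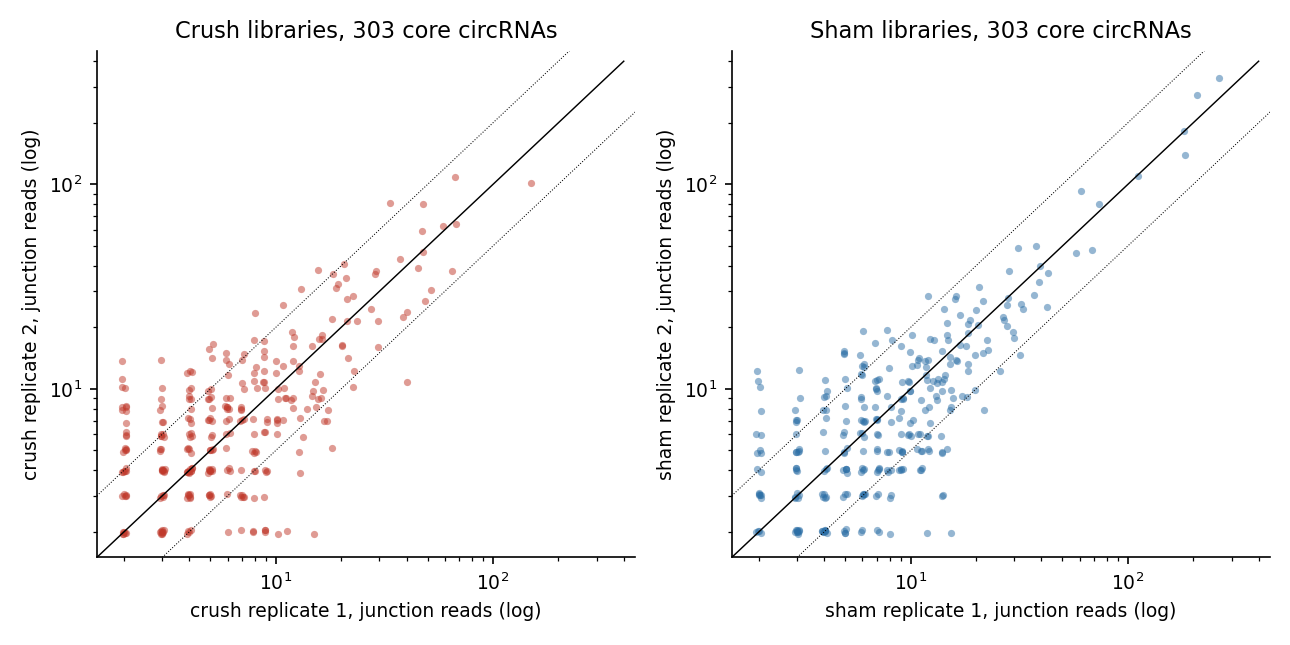
Junction reads of the 303 core circRNAs in replicate 2 (vertical) against replicate 1 (horizontal) on log axes, for crush on the left and sham on the right, with a small random offset that separates equal counts. The solid line marks equal reads and the dotted lines 2-fold differences, and on scaled levels 72.6% of members after crush and 76.2% after sham lay within 2-fold.

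Several abundant members had small fitted changes between crushed and sham nerve, with wide errors. The exonic circRNA of Rab11a, a GTPase of recycling endosomes (chromosome 8, 70203322 to 70206310), had 46 and 39 reads in crushed nerve against 40 and 34 in sham nerve. Its log2 change was 0.42 ± 0.35 (SE, adjusted p = 0.525, edgeR quasi-likelihood test). That of Hipk3, a kinase gene and among the most widely reported circRNA hosts (chromosome 3, 94396940 to 94398038), had 19 and 32 in crushed nerve against 28 and 28 in sham nerve, with a log2 change of 0.08 ± 0.44 (adjusted p = 0.949). That of Spidr, a DNA repair scaffold gene (chromosome 11, 89175425 to 89180448), had 47 and 80 in crushed nerve against 74 and 82 in sham nerve, with a log2 change of -0.09 ± 0.40 (adjusted p = 0.938). That of Mkln1 (chromosome 4, 58714647 to 58725647) had 28 and 36 in crushed nerve against 43 and 25 in sham nerve, with a log2 change of 0.15 ± 0.42 (adjusted p = 0.887). The unscaled counts of all 4 overlapped between the groups, while on TMM-scaled levels both crush values of Rab11a lay above both sham values. A p that misses the threshold does not show that the levels were equal.

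**Figure D3:**
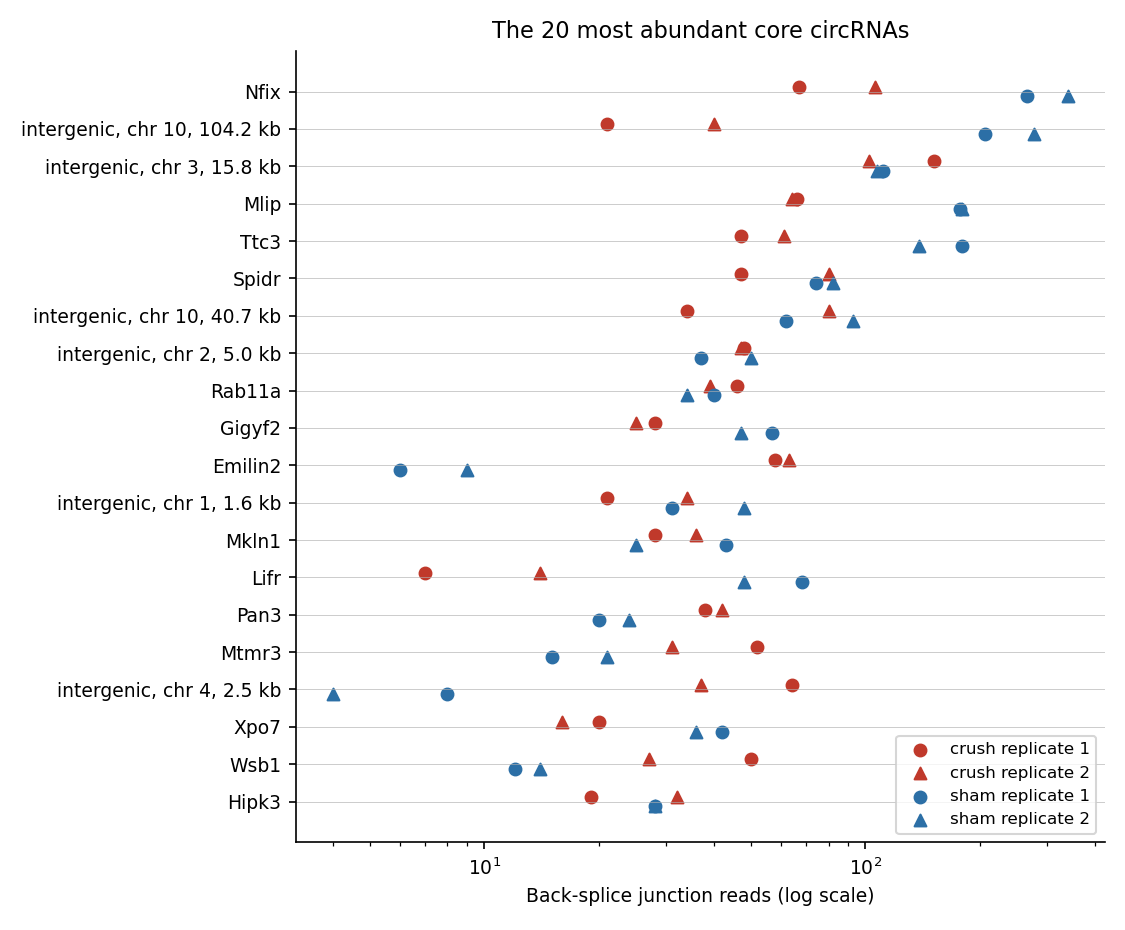
Junction reads on a log axis for the 20 most abundant core circRNAs, each row 1 circRNA named by its host gene, or by chromosome and span where it has none, with red for crush, blue for sham, circles for replicate 1 and triangles for replicate 2. Nfix, Mlip, Ttc3, Lifr and the 104193-base intergenic circRNA lie left in crush, Emilin2 and the intergenic circRNA of chromosome 4 lie right, and Spidr, Rab11a and Hipk3 have all points close together.

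Crushed and sham nerve were compared over the whole table, with 428 circRNAs that had at least 5 reads in at least 2 libraries. Of the 303 members 249 passed this filter and 54 did not. After crush 4 members rose and 3 fell (edgeR quasi-likelihood test, Benjamini-Hochberg adjusted p under 0.05 over all 428). Over all 428 tested, 11.9% passed in either direction, 7.48% as higher and 4.44% as lower. The rule bars a circRNA listed at 0 in a whole group, and 44 calls outside the core were all of that kind, so nothing is read from the 2.81% of members called. At an unadjusted p under 0.05 there were 45 members, against 119 of all 428.

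The members that rose came from Emilin2, Gpatch2, Mbd2 and an intergenic stretch of chromosome 4, and those that fell from Crebrf, Lifr and an intergenic stretch of chromosome 10. All 7 lay on 1 side of the other group in both replicates, and all kept their sign in every alternative in which they were tested. None passed with the replicate number as a block, where adjusted p ranged from 0.188 to 0.332 for the 7, nor with at least 2 reads in 2 libraries as the filter (adjusted p = 0.135 for each).

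Emilin2 (ENSRNOG00000014837) encodes a matrix glycoprotein associated with elastin. Its core circRNA (chromosome 9, 119615345 to 119617261, exonic) had 58 and 63 reads in crushed nerve against 6 and 9 in sham nerve. It ranked 7 in each crush library, against 267 and 143 in sham nerve, and its log2 change was 3.19 ± 0.45 (adjusted p = 0.0454, edgeR). It is the 1 member from the perineurial and fibroblast marker list, on which 4 of 13 genes had a circRNA, and Col1a1, Col3a1 and Pdgfra were at 0. That list had 73 and 101 reads in crushed nerve against 6 and 12 in sham nerve over all circRNAs. Emilin2 itself gave 58 and 67 of them in crushed nerve and 6 and 9 in sham nerve, so the list total is largely its own.

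Mbd2 (ENSRNOG00000011853) encodes a protein that binds methylated CpG sites. Its member (chromosome 18, 65825830 to 65841509, intronic) had 20 and 16 reads in crushed nerve against 4 and 3 in sham nerve, or 1.20 ± 0.35 SRPBM after crush and 0.264 ± 0.039 after sham (SD, n = 2). SRPBM is the deposited scaled level, a constant times the reads of each library. The log2 change was 2.54 ± 0.48 (adjusted p = 0.0454, edgeR). It was the 1 intronic member of the 4 to pass. With library totals taken from SRPBM its log2 change was 2.14 and its adjusted p = 0.0590. Without either crush library it had too few reads to be tested.

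Gpatch2 (ENSRNOG00000002512) encodes a protein with a G-patch domain, a motif found in RNA-processing proteins. Its main circRNA (chromosome 13, 105699059 to 105701842, exonic) had 19 and 33 reads in crushed nerve against 5 and 4 in sham nerve, or 1.68 ± 0.42 SRPBM after crush and 0.339 ± 0.035 after sham (SD, n = 2). The log2 change was 2.71 ± 0.53 (adjusted p = 0.0474, edgeR), and 0.0624 was the adjusted p without crush replicate 2. The intergenic member at chromosome 4, 168514863 to 168517342, had 64 and 37 reads in crushed nerve against 8 and 4 in sham nerve, with a log2 change of 3.28 ± 0.56 (adjusted p = 0.0454). It lay 15514 bases from the nearest hosted circRNA of its strand, in Dusp16.

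Lifr (ENSRNOG00000011696) encodes the receptor of leukemia inhibitory factor, a cytokine that acts on glia and neurons. Its core circRNA (chromosome 2, 56451097 to 56456188, exonic) had 7 and 14 reads in crushed nerve against 68 and 48 in sham nerve, or 0.672 ± 0.233 SRPBM after crush and 4.36 ± 0.83 after sham (SD, n = 2). It ranked 204 and 71 in crushed nerve against 8 and 9 in sham nerve. The log2 change was -2.23 ± 0.49 (adjusted p = 0.04997, edgeR). It passed in 3 of 11 alternatives, and its adjusted p was 0.0825 without crush replicate 1 and 0.0624 without crush replicate 2. It was 0.0645 with DESeq2, 0.0502 with at least 10 reads in 2 libraries and 0.0769 with no filter.

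Crebrf (ENSRNOG00000020769), a regulator of CREB3 turnover, gave a circRNA (chromosome 10, 16724062 to 16730140, exonic) with 6 and 7 reads in crushed nerve against 40 and 39 in sham nerve. Its log2 change was -2.37 ± 0.42 (adjusted p = 0.0454, edgeR), and its adjusted p was 0.0726 without crush replicate 1, 0.0640 without crush replicate 2 and 0.0836 with DESeq2. The intergenic member at chromosome 10, 94083626 to 94187819, had 21 and 40 reads in crushed nerve against 206 and 277 in sham nerve, the second highest mean of the core. Its log2 change was -2.78 ± 0.47 (adjusted p = 0.0454), and with no filter on low counts its adjusted p was 0.635. It ranked 41 and 12 in crushed nerve against 3 and 2 in sham nerve.

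The next members by p did not pass. Toward higher levels after crush they were those of Rasa2 and Ppp2r5a. The circRNA of Rasa2, a Ras GTPase-activating protein gene (chromosome 8, 104493052 to 104514522), had 29 and 37 reads in crushed nerve against 10 and 11 in sham nerve, with a log2 change of 1.85 ± 0.42 (adjusted p = 0.0550, edgeR). That of Ppp2r5a, a regulatory subunit of protein phosphatase 2A (chromosome 13, 110049191 to 110052621), had 23 and 12 in crushed nerve against 2 and 5 in sham nerve, with a log2 change of 2.49 ± 0.68 (adjusted p = 0.0819). Both had crush counts above both sham counts. Without sham replicate 2 both passed (adjusted p = 0.0370 for Rasa2 and 0.00749 for Ppp2r5a), and Ppp2r5a also passed with no filter (0.0283).

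Toward lower levels the next were those of Gucy1a2, Tshz2 and Nfix, each with adjusted p = 0.0615 (edgeR). The circRNA of Gucy1a2, a subunit of the nitric oxide receptor guanylate cyclase (chromosome 8, 508994 to 509712), had 4 and 6 reads in crushed nerve against 30 and 19 in sham nerve. That of Tshz2, a zinc finger transcription factor gene (chromosome 3, 166743545 to 166746478), had 5 and 9 in crushed nerve against 36 and 29 in sham nerve. That of Nfix, a nuclear factor I gene (chromosome 19, 25886356 to 25886887), had 67 and 106 in crushed nerve against 265 and 340 in sham nerve. Their log2 changes were -2.04 ± 0.49, -1.98 ± 0.48 and -1.60 ± 0.39 in that order. Sham counts of all 3 lay above their crush counts. Nfix passed in 5 of 11 alternatives, among them DESeq2 (adjusted p = 0.000456), SRPBM totals (0.0265), at least 10 reads in 2 libraries (0.0483), and without crush replicate 2 (0.00234) or sham replicate 1 (0.0333). Tshz2 passed with SRPBM totals (0.0265) and without sham replicate 1 (0.0277) or 2 (0.00746). Gucy1a2 passed with SRPBM totals (0.0284) and without sham replicate 2 (0.00562).

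Other abundant members gave values on 1 side without passing. Wsb1, the gene of a substrate receptor of a ubiquitin ligase (chromosome 10, 66595570 to 66597359), had 50 and 27 reads in crushed nerve against 12 and 14 in sham nerve, with a log2 change of 1.77 ± 0.51 (adjusted p = 0.0925, edgeR, and 0.0355 without sham replicate 2). Mtmr3, a phosphoinositide phosphatase gene (chromosome 14, 84739856 to 84766181), had 52 and 31 in crushed nerve against 15 and 21 in sham nerve, with a log2 change of 1.41 ± 0.49 (adjusted p = 0.142). Xpo7, a nuclear transport receptor gene (chromosome 15, 52370515 to 52375430), had 20 and 16 in crushed nerve against 42 and 36 in sham nerve, with a log2 change of -0.89 ± 0.39 (adjusted p = 0.217). Of the tested members 59 (23.7%) had both crush levels above both sham levels and 74 (29.7%) had both below. Over all 428 tested circRNAs these shares were 30.1% above and 28.0% below. That background includes 61 circRNAs at 0 in a whole group, which the rule bars from the core, so nothing is read from the comparison.

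**Figure D4:**
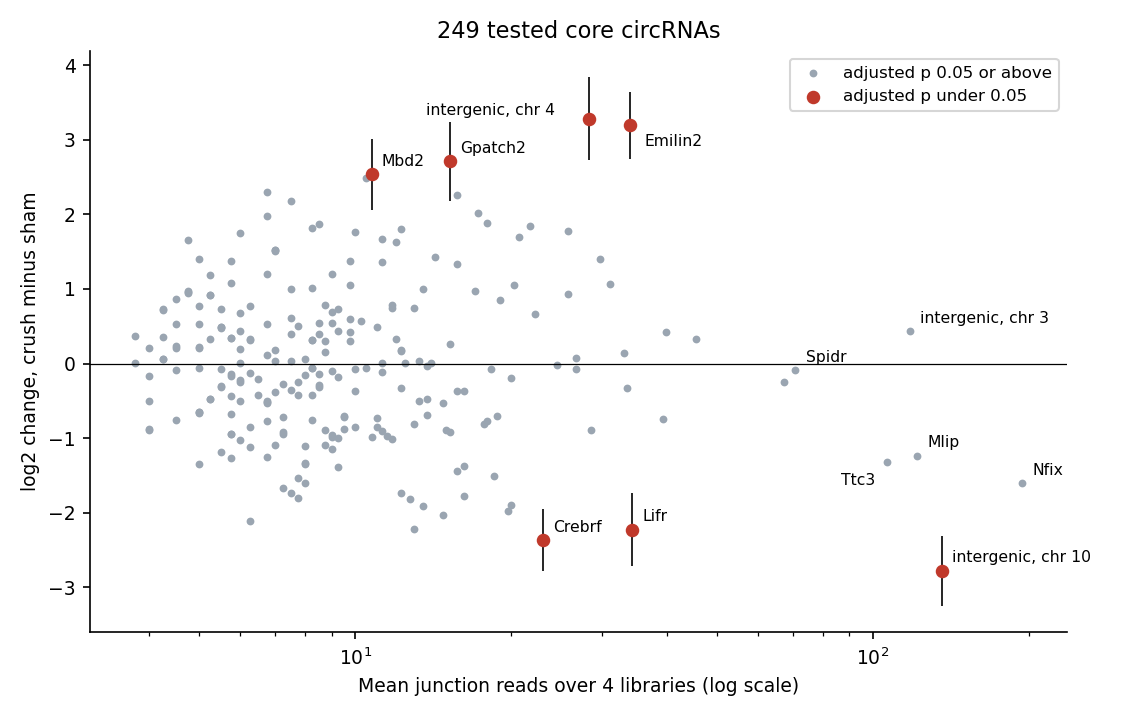
Log2 change from sham to crush (vertical) against mean junction reads on a log axis for the 249 tested core circRNAs. The 7 with adjusted p under 0.05 are red with bars of 1 SE, 4 above and 3 below 0, and the most abundant members are named.

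Over the 249 tested members the median log2 change was -0.05, with quartiles of -0.75 and 0.67, and over all 428 tested circRNAs it was 0.03. A change of at most 1 on the log2 scale in either direction was fitted for 171 members (68.7%), and the median standard error was 0.65. No comparison with circRNAs outside the core is made for these, since 61 of the 179 tested there were at 0 in a whole group, which the rule bars. Counts of signs turned with the scaling. They were 122 positive and 127 negative with TMM, 137 and 112 with DESeq2's size factors, and 82 and 167 with SRPBM totals, which moved the median of all 428 to -0.37. DESeq2's size factors rest on features with reads in every library, which here are core members.

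In hosts with 3 or more members, the circles of a host leaned the same way in some genes and not in others. None of these circles passed singly in the main edgeR test, with TMM, all 4 libraries and at least 5 reads in at least 2 of them. In Ttc3, a ubiquitin ligase gene, all 4 tested members had negative log2 changes, from -1.74 to -0.71, with adjusted p from 0.0638 to 0.488 (edgeR). The main one (chromosome 11, 34612627 to 34614139) had 47 and 61 reads in crushed nerve against 179 and 138 in sham nerve. All 4 together had 61 and 76 reads in crushed nerve against 222 and 182 in sham nerve. In Mlip all 3 were negative, from -2.23 to -1.24 (adjusted p from 0.0638 to 0.408). In Smad4 all 3 were positive, from 0.74 to 2.18 (adjusted p from 0.144 to 0.618). These signs held with SRPBM totals and with DESeq2's size factors. The calls did not all hold, since the main circle of Ttc3 passed with DESeq2 (adjusted p = 0.0329), SRPBM totals (0.0265) and at least 10 reads in 2 libraries (0.0483), and without sham replicate 2 (0.0471). That of Mlip passed with DESeq2 (0.0329), SRPBM totals (0.0284) and at least 10 reads (0.0439).

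Pan3, Atrnl1, Mkln1 and Ash1l had members of both signs with TMM. All 3 of Pan3 and of Atrnl1 were positive with DESeq2's size factors, and all 3 of Mkln1 were negative with SRPBM totals. The main circRNA of Pan3 (chromosome 12, 9297691 to 9313769) had 38 and 42 reads in crushed nerve against 20 and 24 in sham nerve, with a log2 change of 1.07 ± 0.39 (adjusted p = 0.156, edgeR). Its intronic member (9256476 to 9313769) had 8 and 10 in crushed nerve against 12 and 10 in sham nerve, with a log2 change of -0.07 ± 0.43 (adjusted p = 0.9496). In Ash1l the circRNA at 188269009 to 188286112 had 12 and 16 reads in crushed nerve against 6 and 13 in sham nerve, while that at 188269009 to 188309036 had 3 and 6 in crushed nerve against 15 and 8 in sham nerve. Their log2 changes were 0.75 ± 0.56 and -1.10 ± 0.65 (adjusted p = 0.479 and 0.376), and the difference between them was not tested.

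**Figure D5:**
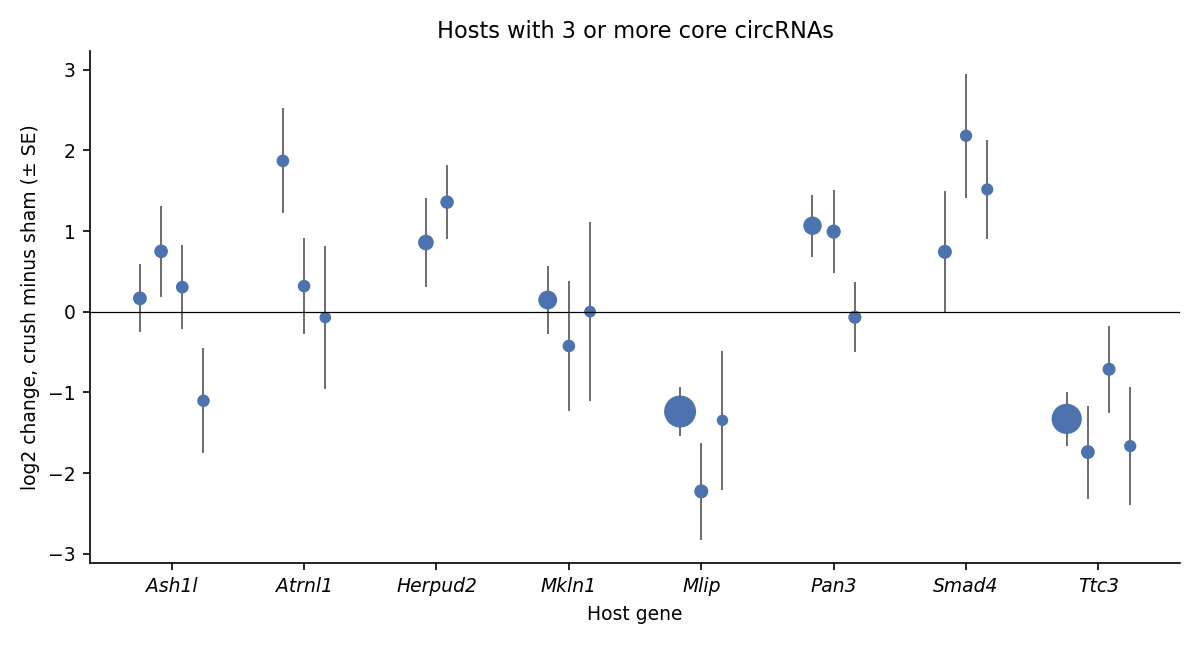
Log2 change from sham to crush with bars of 1 SE for each tested core circRNA of the 8 hosts with 3 or more, from the most abundant member at the left of each host, with point area growing with mean reads. All points of Mlip and Ttc3 lie below 0, all of Smad4 and Herpud2 lie above, and the other 4 hosts have both with TMM scaling.

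Summed over all circRNAs of a gene, 3 of 198 tested core hosts passed, and 10 of all 434 tested hosts (2.30%). A core host has reads in every library by the rule, which other hosts need not have, so nothing is read from this comparison. Emilin2 rose by a log2 of 3.24 ± 0.44 (adjusted p = 0.0358, edgeR), Nfix had a log2 change of -1.63 ± 0.29 and Ttc3 of -1.36 ± 0.24 (adjusted p = 0.0490 for each). Nfix and Ttc3 rested on their core members, since their other circRNAs had 0 and 0 reads in crushed nerve against 0 and 8 in sham nerve for Nfix, and 0 and 3 in crushed nerve against 8 and 4 in sham nerve for Ttc3. Stk39, whose kinase controls ion cotransporters, had many reads outside its member in sham nerve. Its member (chromosome 3, 54547246 to 54566332) had 6 and 9 reads in crushed nerve against 28 and 20 in sham nerve, and its other 10 circRNAs had 2 and 0 in crushed nerve against 30 and 18 in sham nerve. Its host log2 change was -2.26 ± 0.46 (adjusted p = 0.0558). None of the 3 hosts passed without crush replicate 2 (adjusted p = 0.178 for each), where 30 core hosts had an unadjusted p under 0.05. Nfix and Ttc3 also missed without crush replicate 1 (adjusted p = 0.184 and 0.241).

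Grouped by host function, the members spread over all lists and few passed. Chromatin regulators gave 14 members from 8 hosts, of which 10 were tested and none passed (1 at an unadjusted p under 0.05). Their median log2 change was 0.39, with 7 of 10 positive, and 5 of 10 with SRPBM totals. Tet3, an enzyme of DNA demethylation (chromosome 4, 115104274 to 115106428), had 16 and 38 reads in crushed nerve against 4 and 11 in sham nerve, with a log2 change of 2.02 ± 0.74 (adjusted p = 0.159, edgeR). Transcription factors gave 7 members from 5 hosts, all tested, of which that of Crebrf fell and none rose. The median was 0.40, with 5 of 7 positive and 3 of 7 with SRPBM totals. The 3 circles of Smad4 were positive with both scalings, and circles of 1 host are not independent of each other.

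Ubiquitin ligases and deubiquitinases gave 14 members from 10 hosts, and none of the 13 tested passed (2 at an unadjusted p under 0.05, median -0.07, 6 positive). Ankib1, a ubiquitin ligase gene, had 16 and 17 reads in crushed nerve against 17 and 23 in sham nerve for its main circle (chromosome 4, 27509136 to 27524886). Rnf169, a ligase of the DNA damage response, had 21 and 22 in crushed nerve against 15 and 5 in sham nerve. Usp32, a deubiquitinase gene, had 18 and 5 in crushed nerve against 18 and 9 in sham nerve. RNA-binding, splicing and translation factors gave 9 members from 6 hosts, and none of 7 tested passed (2 at an unadjusted p under 0.05). The median was 0.35, with 5 of 7 positive and 3 of 7 with SRPBM totals. Cnot6l, a deadenylase gene (chromosome 14, 15086543 to 15091475), had 39 and 22 reads in crushed nerve against 13 and 9 in sham nerve, with a log2 change of 1.69 ± 0.50 (adjusted p = 0.0980, edgeR).

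Kinases and phosphatases gave the most members after the widely reported hosts, 19 from 15 genes. This was also the longest list, with 121 genes, of which 66 had a circRNA, so nothing is read from that place. None of 14 tested kinase and phosphatase members passed (6 at an unadjusted p under 0.05). Their median was 0.59, with 11 of 14 positive and 9 of 14 with SRPBM totals. Cytoskeleton, adhesion and matrix genes gave 11 members from 8 hosts, and of 9 tested that of Emilin2 rose and none fell. The median was -1.01 with 2 of 9 positive, and the 3 circles of Mlip were among the negative ones. Magi2, a junction scaffold gene (chromosome 4, 11460075 to 11497530), had 7 and 10 reads in crushed nerve against 33 and 24 in sham nerve. Its log2 change was -1.51 ± 0.45 (adjusted p = 0.0980, edgeR).

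Membrane traffic genes gave 9 members from 7 hosts, and none of 5 tested passed (0 at an unadjusted p under 0.05 too, median -0.19, 2 positive). Tbc1d5, a Rab GTPase-activating protein gene, had 16 and 18 reads in crushed nerve against 31 and 15 in sham nerve for its main circle (chromosome 9, 1473647 to 1485363). Osbpl9, of the oxysterol-binding protein family, had 6 and 15 in crushed nerve against 8 and 4 in sham nerve for its main circle. Dennd4a, a Rab exchange factor gene, had 6 and 6 in crushed nerve against 4 and 3 in sham nerve. Ion channels and transporters gave 3 members from 2 hosts, all tested, and none passed (1 at an unadjusted p under 0.05). The main circle of Atp9b, a P4-type ATPase gene (chromosome 18, 77512807 to 77520779), had 23 and 10 reads in crushed nerve against 8 and 4 in sham nerve. Slc16a10, an aromatic amino acid transporter gene, had 5 and 16 in crushed nerve against 6 and 8 in sham nerve.

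Genes widely reported as circRNA hosts in other tissues and species gave 34 members from 19 genes. Of 30 tested, that of Crebrf fell and none rose, and the median was -0.07 with 14 positive, 17 with DESeq2's size factors and 9 with SRPBM totals. The skeletal muscle marker list gave 3 members, all from Mlip and none past the main edgeR test. Over all circRNAs the list had 76 and 84 reads in crushed nerve against 207 and 235 in sham nerve from 5 of 15 genes, and Ttn, Acta1 and Ckm were listed at 0. The members from Mlip had 74 and 69 in crushed nerve against 198 and 217 in sham nerve. Whether muscle beside the nerve had a part in the level of Mlip circles was not tested.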

How the data were processed

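Each deposited table holds, per the file headers, a raw count of junction reads for every circRNA of 1 library. Beside it stands a deposited signal, SRPBM, which was checked to be the count times 1 constant per library. Rnor_6.0 is the build in the submitters' processing notes, which also list BWA, CASAVA 1.8 and edgeR without roles. The circRNA caller is not given in sources used here. Coordinates are those of the files, whose base convention is not stated. Totals were 8250 to 9027 junction reads per library.

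The tables were joined by circRNA identifier and the members kept as stated. Of 214 core hosts, 205 had a current symbol in the RefSeq table of GRCr8, 7 had a listed synonym, and 2 kept the name in the files. CircRNAs (and reads summed per host) with at least 5 reads in at least 2 libraries were tested with edgeR 4.0.16 (glmQLFit, TMM, two-sided, R 4.3.3) over the whole table, threshold 0.05. Standard errors are those implied by the test. Shares have Clopper-Pearson intervals. Scaled levels for folds between libraries use TMM. The fit was tested on simulated data. Alternatives were DESeq2 1.42.0, SRPBM totals, other filters, a replicate block and leaving out each library.

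Named circRNAs are the 20 most abundant members, those past a test, the 6 per direction with the smallest p, those of hosts with 3 or more members, the 3 longest, shortest, closest and farthest in replicates, the 4 highest per list, and the 6 most abundant called in exactly 3 libraries. A few items that this rule names are not reported here. Members and lists were chosen with earlier results of these data known.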

Additional observations from a re-analysis of the deposited data

How the results depend on the processing

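With 7 members past the circRNA test, the number was 14 with SRPBM totals, 0 with at least 2 reads in 2 libraries (52 at an unadjusted p under 0.05), 0 with the replicate block (31 unadjusted) and 4 to 18 without 1 library. DESeq2 gave 8, of which 5 were among the 7, and Lifr and Crebrf were not. With 3 core hosts past the host test, the number was 11 with DESeq2, 6 with SRPBM totals, 0 with at least 2 reads in 2 libraries (45 unadjusted), 21 with at least 10, 10 with no filter, 9 with the replicate block and 0 to 25 without 1 library, the lowest without crush replicate 2 and the highest without sham replicate 2. Same-numbered samples share only a number here, and their deviations correlated at -0.11 over the 428 tested circRNAs and at 0.12 over the 249 tested members. Crossed pairing, chosen after seeing the data, gave 0 members (28 unadjusted) and 0 hosts (26 unadjusted). The median log2 change of tested members, -0.05, was 0.0592 with DESeq2, -0.47 with SRPBM totals, -0.0360 with at least 2 reads, -0.0806 with at least 10, -0.0372 with crossed pairing and -0.0702 to 0.0074 without 1 library. The core numbered 106 with at least 5 reads in every library and 33 with at least 10. The gap in read share, -9.30 points, was -8.29 and -6.82 with those minimums, -6.47 for exonic members, -2.33 without the 5 most abundant, chosen after seeing the data, and -10.97 to -8.23 with 3 libraries. The replicate spread, 1.48 as the mean of both groups, was 2.13 for members with a mean of at least 10 reads. The cause of these shifts was not tested, beyond the fewer features or samples that a filter or a left-out library leaves. Members had a median of 6 to 7 reads per library, and no detection limit was computed.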

Other observations

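The highest ranks of a library could also hold a circRNA that no other library called, and the example here was picked after its values were seen. An intronic circRNA of Ralgapa1, the gene of a subunit of a Ral GTPase-activating complex (chromosome 6, 76591791 to 76599536), had 207 reads in sham replicate 1, rank 2 of that library, and 0 in the other 3 libraries. The same gene hosts a core circRNA (76487880 to 76492176) with 2 and 10 reads in crushed nerve against 14 and 5 in sham nerve. Irak3 gave a core circRNA (chromosome 7, 64945305 to 64965325) with 2 and 4 reads in crushed nerve against 2 and 3 in sham nerve, far below its circle that was missing from sham replicate 1 alone.

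The members from Irak3, Uvrag and Nktr were also picked after their values were seen. The circRNA of Uvrag, a gene of autophagy and endosome traffic, at chromosome 1, 164025518 to 164064815, had 6 and 9 reads in crushed nerve against 28 and 37 in sham nerve, and its shorter partner (164046102 to 164064815) had 4 and 7 in crushed nerve against 6 and 19 in sham nerve. Their log2 changes were -1.90 ± 0.48 and -0.98 ± 0.78 (adjusted p = 0.0667 and 0.501, edgeR), and the difference was not tested. Of the 23 hosts with at least 2 tested members, 14 had all members on 1 side of 0 and 9 had both signs. Nktr, whose product has a cyclophilin domain, gave a member with 40 and 11 reads in crushed nerve against 2 and 10 in sham nerve, with a log2 change of 2.26 ± 1.00 (adjusted p = 0.220).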
